A study of Homo sapiens with 36 samples.

Results

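Hsa-Mir-423_5p and Hsa-Mir-423_3p are the arms of 1 microRNA hairpin, and the table of the series lists neither of them as a passenger strand. They are 2 of the 135 mature miRNAs of the table, and Mir-423 is 1 of 23 hairpins with both arms listed. The pair was chosen by its level in IP, since both arms were higher in the immunoprecipitate (IP) of F182del than in that of WT-AGO2. The values of that comparison are therefore given as a description with no test, and so are the values of WT and F182del in immunoprecipitate against input.

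HEK293T, a widely used human line of embryonic kidney origin that takes up plasmids readily, received plasmids for AGO2 with a Flag/HA tag. The plasmids carried AGO2 as WT, F182del, N359H, G604R or D619N, or no AGO2 (Flag/HA-empty vector). A plasmid for EGFP, pEGFP-C1, was given along with them as a sign of transfection. Small RNA was sequenced from the lysate (input) and after pull-down with an antibody against HA (IP), with 3 replicates in each of the 12 conditions, or 36 libraries. The cells also have their own AGO proteins, which carry no tag, and expression came from a transfected plasmid and not from the AGO2 gene itself. The labels do not say whether the replicates are separate transfections, so the p-values measure the spread between these libraries. In bulk lysates, more cells with a miRNA and more copies per cell cannot be told apart.

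A miRNA hairpin is cut by the nuclease Dicer into a duplex of its 5′ arm (5p) and its 3′ arm (3p). An Argonaute protein such as AGO2 takes up the duplex, keeps 1 strand as the guide and releases the other, the passenger. The guide then finds target RNAs mainly through its seed, bases 2 to 8. Strands with a 5′ end that is weakly paired, and with U or A as the first base, are usually preferred, and for some hairpins both strands are kept.

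The hairpin and its arms are shown because the results turn on which of the 2 strands was found on AGO2. The gene MIR423 lies at chr17:30117079-30117172 on the plus strand of GRCh38, inside NSRP1 (chromosome 17, 30115521 to 30186475, plus strand), which codes for a splicing regulator. Of the 17 annotated NSRP1 transcripts, 12 span the hairpin, which is intronic in 11 and overlaps an exon in 1. In the hairpin (RefSeq, GRCh38.p14) the capitals mark the arms, which have 13 bases between them.
MIR423: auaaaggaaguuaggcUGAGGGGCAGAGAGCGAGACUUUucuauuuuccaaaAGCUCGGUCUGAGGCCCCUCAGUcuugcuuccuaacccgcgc

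In the mature sequences, from the same RefSeq set, the capitals mark the seed.
hsa-miR-423-5p: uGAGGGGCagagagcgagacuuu
hsa-miR-423-3p: aGCUCGGUcugaggccccucagu
hsa-miR-3184-5p: uGAGGGGCcucagaccgagcuuuu

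The 5p arm (chr17:30117095-30117117) has 23 bases, starts with U and holds 56.5% G and C. The 3p arm (chr17:30117131-30117153) also has 23 bases, starts with A and holds 65.2% G and C. The arms share no seed, so they belong to different seed groups. Among 2370 human mature entries, the seed of the 5p arm is found in 1 other, hsa-miR-3184-5p, which is encoded by MIR3184 on the opposite strand of the same locus. It shares its first 8 bases with the 5p arm and is shown for this shared seed. No values of hsa-miR-3184-5p were analysed here.

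The libraries held between 9395 and 4162450 reads, of which 1150 to 30793 were on mature miRNAs in the IP of the AGO2 vectors and 446 to 12040 in the inputs. The shallowest inputs were replicate 1 of G604R (9395 reads), of D619N (17118) and of N359H (148205). RPM, the deposited unit, relates the reads of a miRNA to all reads of its library, and the reads behind each value were inferred from it. Of the 72 values of the pair, 14 are 0 and 36 rest on 10 or more reads, so that most statements on the inputs rest on few reads. A value of 2 reads occurs 4 times and a value of 1 read 0 times. Whether a 0 can stand for a single read was not tested. Since mature miRNAs took very different parts of the reads in different libraries, levels are given mainly as percent of mature miRNA reads. Intervals and limits cover counting error only.

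On WT-AGO2, both arms were found at similar levels. Hsa-Mir-423_5p took 0.416%, 0.420% and 0.508% of the mature miRNA reads in the IP replicates (128, 27 and 31 reads), or 0.448% ± 0.0520 (SD, n = 3). Hsa-Mir-423_3p took 0.334%, 0.280% and 0.508% (103, 18 and 31 reads), or 0.374% ± 0.119 (SD, n = 3). The ranges of the arms overlap, and among the miRNAs of these libraries the 5p arm held place 27 to 33 and the 3p arm place 27 to 43.

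With the Flag/HA-empty vector, no read of either arm was found in the IP. These libraries held 560 mature miRNA reads in all, which allows a share of up to 0.536% (3 reads), above the mean share on WT-AGO2. By share of mature miRNA reads, the arms were thus not detectable at this depth. In RPM, relative to all reads, 3 reads correspond to 112 RPM as the mean of these libraries, and the WT means of 278 RPM (5p) and 219 RPM (3p) were at least 2.48-fold and 1.95-fold higher. This holds for the means only, since WT replicate 3 stood at 113 RPM for each arm, about level with the limit. The G604R means of 103 RPM (5p) and 90.0 RPM (3p) lay below this mean limit. In the single empty vector libraries, 3 reads were 166, 62.4 and 107 RPM, and the G604R means lay above the limit of replicate 2. The limit by share used the summed reads and the limit in RPM a mean of libraries, so their bases differ. In the inputs of the empty vector the arms were found with 20 and 59 reads.

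F182del is the variant on which the pair was chosen. In its IP, Hsa-Mir-423_5p took 1.63%, 2.14% and 0.892% of mature miRNA reads (144, 69 and 163 reads), 3.47 times the WT mean. Hsa-Mir-423_3p took 0.791%, 0.837% and 0.859% (70, 27 and 157 reads), 2.22 times the WT mean. For each arm the 3 F182del libraries lie above the 3 WT libraries. The 3p arm was much more even between replicates (SD 0.0346) than the 5p arm (SD 0.627), whose replicate 3 stands closest to WT. On the scaled log2(RPM + 1) scale of the fits, the difference from WT was 1.76 ± 0.34 (SE) for 5p and 1.24 ± 0.29 (SE) for 3p, places 17 and 23 among 133 miRNAs by difference, where 6.02% of all miRNAs passed the call rule (adjusted p below 0.05 and an absolute log2 difference above 1). With RPM as deposited, these differences are 0.96 and 0.44, while the median of all tested miRNAs moves from 0.01 to −0.78.

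**Figure D1:**
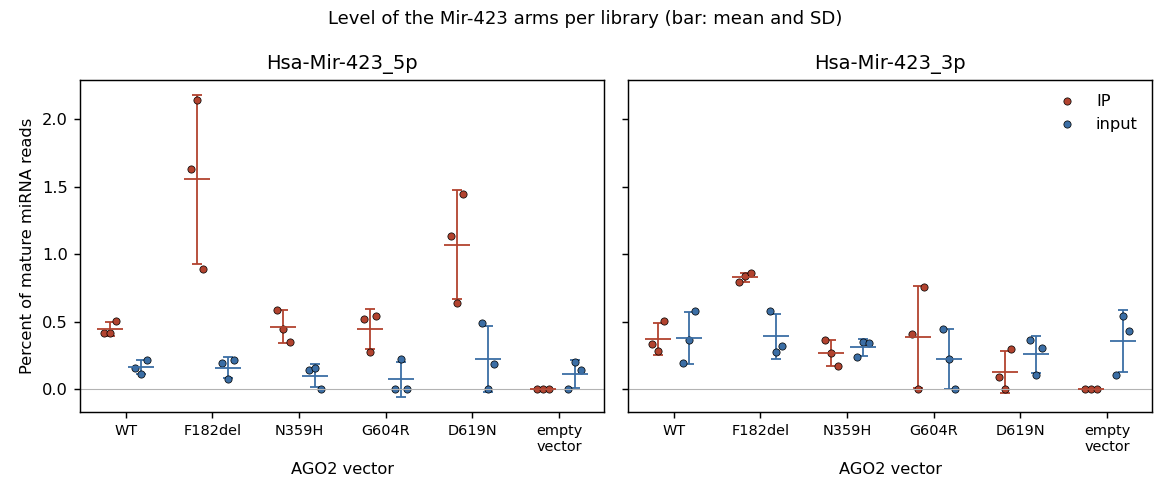
Level of Hsa-Mir-423_5p (left) and Hsa-Mir-423_3p (right) in each library, as percent of mature miRNA reads, by AGO2 vector, in IP (red) and input (blue). Points are libraries and bars the mean and SD of 3. The 5p arm stands highest in the IP of F182del and D619N, and the 3p arm in that of F182del.

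In the IP of D619N, Hsa-Mir-423_5p took 1.13%, 0.640% and 1.44% of mature miRNA reads (78, 17 and 29 reads), or 1.07% ± 0.404 (SD, n = 3), 2.39 times the WT mean, and the D619N libraries do not overlap the WT libraries, whose values were also part of the choice of the pair. Hsa-Mir-423_3p took 0.0870%, 0% and 0.298% (6, 0 and 6 reads), or 0.128% ± 0.153 (SD, n = 3), 0.343 times the WT mean. The highest D619N value of the 3p arm lies between the WT values. In the fit over 123 miRNAs (limma), of which 14.6% were called in either direction and 3.25% as higher, the 5p arm was higher than in WT by 1.23 ± 0.32 on the log2 scale (SE, 95% interval 0.47 to 1.99, adjusted p = 0.0490), past the call rule. This p is not independent of the choice of the pair, since WT libraries with low values of both arms favoured the choice, and nothing is read from it. The same WT libraries enter every other IP comparison with WT and the interactions. The median of all tested miRNAs was −1.18 in this fit, −0.60 with RPM as deposited and −1.54 with values relative to mature miRNA reads (CPM), and the 5p arm was higher in all of them, by 1.23, 1.78 and 1.19. The 3p arm differed by −3.38 ± 1.87 (SE, adjusted p = 0.246), which was not called, and whose size depends on the library with no 3p read: without D619N replicate 2 it was −1.04.

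The adjusted p of the 5p arm was also close to its threshold, which it missed without WT replicate 1 (adjusted p = 0.10), WT replicate 2 (0.110), D619N replicate 1 (0.109) or D619N replicate 3 (0.0575), while the difference stayed between 1.08 and 1.64 with any library left out. Between variants, with no library that chose the pair, the 5p arm differed by 1.30 ± 0.40 between D619N and N359H (SE, limma, adjusted p = 0.102) and by 1.53 ± 0.45 between D619N and G604R (adjusted p = 0.0879). Neither was called, in fits where 7.21% and 10% of miRNAs were. Without D619N replicate 2 the first was 1.62 and was called (adjusted p = 0.0271). The values of the 3p arm were −2.85 ± 1.92 (adjusted p = 0.334) and −1.04 ± 2.73 (0.780). As percent of mature miRNA reads, the 5p arm was higher in every D619N library than in every N359H and G604R library. For this and every other separation of groups named here, the share of all miRNAs that separate as fully was not counted.

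On N359H and G604R neither arm was called as different from WT. Hsa-Mir-423_5p took 0.590%, 0.446% and 0.348% on N359H (39, 28 and 4 reads) and 0.523%, 0.275% and 0.539% on G604R (14, 5 and 20 reads), and the WT libraries lie within both ranges. The log2 difference from WT was 0.09 for N359H (95% interval −0.61 to 0.79, limma adjusted p = 0.909) and −0.22 for G604R (−1.0 to 0.57, adjusted p = 0.770). Hsa-Mir-423_3p took 0.363%, 0.271% and 0.174% on N359H (24, 17 and 2 reads), a difference of −0.41 (−1.34 to 0.51, adjusted p = 0.794). On G604R it took 0.411%, 0% and 0.754% (11, 0 and 28 reads), a difference of −2.01 with an interval of −6.21 to 2.20 (adjusted p = 0.574), which can show neither a change nor its absence. None of the 123 miRNAs was called for N359H (6 had an unadjusted p below 0.05), and 4.88% were for G604R. G604R and N359H differed by −0.26 for 5p (adjusted p = 0.832) and by −1.58 for 3p (adjusted p = 0.741), in a fit where 0.885% were called. With RPM as deposited, the 5p value was −1.58 and was called (adjusted p = 0.0216).

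Ordered by mean share in IP, the 5p arm ran from F182del over D619N, N359H and WT to G604R. F182del and D619N overlap, D619N and N359H do not, and N359H, WT and G604R overlap each other in turn. The 3p arm ran from F182del over G604R, WT and N359H to D619N. Here F182del stands apart from G604R, and all further neighbours overlap.

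In the inputs, where the lysate as a whole is measured, no arm was called as different from WT with any variant. The mean share of the 5p arm was between 0.0737% (G604R) and 0.224% (D619N), with 0.164% ± 0.0526 (SD, n = 3) in WT, and that of the 3p arm between 0.223% (G604R) and 0.391% (F182del), with 0.379% ± 0.196 (SD, n = 3) in WT. In the WT inputs the 5p arm was at 0.160%, 0.113% and 0.218% (15, 5 and 6 reads) and in those of F182del at 0.193%, 0.0726% and 0.214% (6, 4 and 8 reads). The 3p arm was at 0.192%, 0.363% and 0.583% in WT (18, 16 and 16 reads) and at 0.579%, 0.272% and 0.320% in F182del (18, 15 and 12 reads). The ranges of F182del and WT overlap for both arms. All neighbours in the order of the 6 input groups overlap, for both arms. F182del differed from WT in the input by −0.15 ± 0.47 (SE) for 5p and 0.02 ± 0.43 for 3p (limma, both adjusted p = 0.994), with 95% intervals of −1.19 to 0.88 and −0.94 to 0.97. For D619N the differences were −0.64 (−3.16 to 1.87, adjusted p = 0.994) and −0.71 (−2.06 to 0.64, adjusted p = 0.948), and for N359H −1.08 (−2.52 to 0.36, adjusted p = 0.826) and −0.29 (−1.16 to 0.59, adjusted p = 0.975). For G604R they were −1.91 (−4.60 to 0.77, adjusted p = 0.589) and −1.60 (−4.17 to 0.98, adjusted p = 0.668). In the inputs 0% of miRNAs were called with any variant, while 9 (F182del), 2 (N359H), 11 (G604R) and 4 (D619N) had an unadjusted p below 0.05. The wide intervals go with few reads, since the 5p arm had none in N359H replicate 3, in G604R replicates 1 and 3 and in D619N replicate 2.

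**Figure D2:**
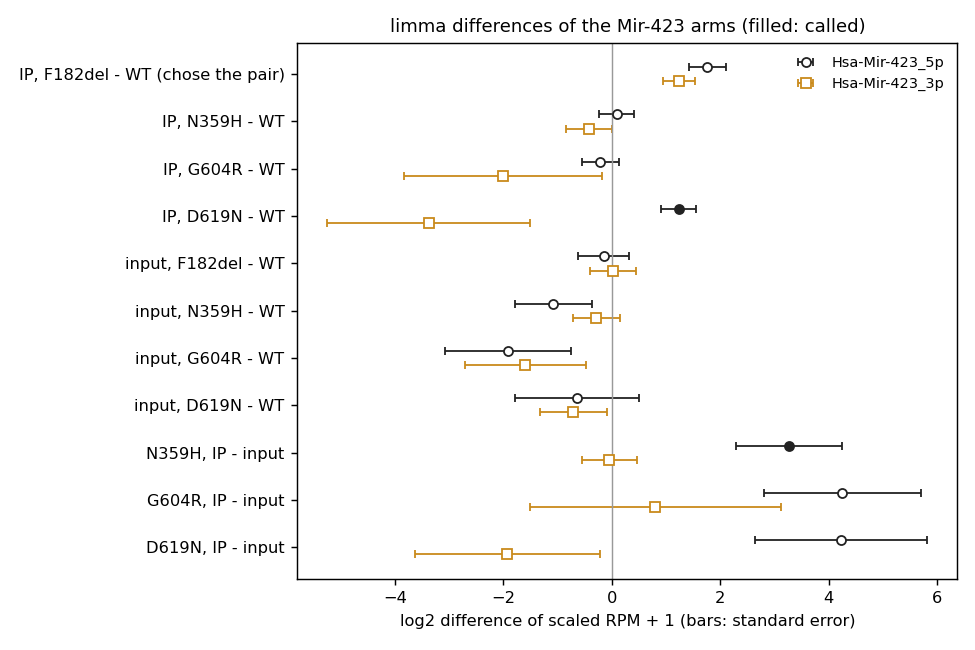
Difference of each arm (black circles 5p, yellow squares 3p) in each comparison, on the log2 scale of scaled RPM + 1, with standard errors. Filled symbols are called, and the comparison that chose the pair is shown without a test. The filled symbols are 5p for D619N in IP (1.23), against WT libraries that also took part in the choice of the pair, and for N359H in IP against input (3.27).

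The next comparison asks how each arm stood among the miRNAs in IP against the lysate. The 5p arm was called higher in IP in 1 of the 3 variants tested, N359H, and the 3p arm in none. The mean share of the 5p arm in IP was 2.73 times that in the input for WT, 9.72 times for F182del, 4.61 times for N359H, 6.04 times for G604R and 4.78 times for D619N. These ratios rest on few input reads: the D619N input mean was 0.224%, and 0.0917% without its replicate 1, and that of G604R was 0.0737%, from 6 reads in replicate 2, and 0% without it. For N359H it was 0.10%, and 0.15% without replicate 3. The 3p arm stood at 0.987, 2.12, 0.870, 1.74 and 0.497 times. In the fits of IP against input, the 5p arm of N359H was called (log2 difference 3.27 ± 0.97, SE, limma adjusted p = 0.0229, with 11.7% of 120 miRNAs called, 3.33% as higher). With the replicate number as a block, which takes IP and input of the same number as the same lysate, the adjusted p was 0.0011. The call was lost without N359H IP replicate 1 (0.143), IP replicate 2 (0.186) or input replicate 2 (0.101), and the difference was 1.68 without input replicate 3, which had no 5p read. The 5p arm differed by 4.25 ± 1.45 for G604R (SE, adjusted p = 0.128) and by 4.23 ± 1.59 for D619N (adjusted p = 0.107), neither called, in fits where 8.57% and 17.5% of miRNAs were. Each was called with 1 input left out, G604R without input replicate 2 (6.28, adjusted p = 0.0078) and D619N without input replicate 1 (5.37, adjusted p = 0.0492), and with RPM as deposited.

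The 3p arm showed no called difference between IP and input. The log2 differences were −0.04 ± 0.50 (SE) for N359H (limma adjusted p = 0.970), 0.80 ± 2.31 for G604R (0.802) and −1.93 ± 1.71 for D619N (0.461). For N359H and D619N the sign depends on the scale: with RPM as deposited, where the larger part of miRNA reads in IP enters the value, they were 3.41, which was called (adjusted p = 0.0095), and 0.71. Whether the gain of an arm differed between a variant and WT was tested by the interaction of fraction and variant, and no interaction was called for N359H, G604R or D619N. For 5p these were 1.52 (adjusted p = 0.647), 2.50 (0.648) and 2.32 (0.521), and for 3p −0.36 (0.853), 0.44 (0.913) and −2.12 (0.533), in fits where 0%, 1.54% and 3.94% of miRNAs were called. Without G604R input replicate 2, the only one of its group with 5p reads, the 5p interaction of G604R was 4.26 and was called (adjusted p = 0.0113).

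The 3p arm had more reads in most inputs, and the 5p arm in most IP libraries. In 15 of 18 inputs more reads were of the 3p arm, in 1 of the 5p arm, and 2 had equal numbers. In 13 of 15 IP libraries of the AGO2 vectors more reads were of the 5p arm, in 1 of the 3p arm, and 1 had equal numbers. Summed over libraries there were 796 reads of 5p and 500 of 3p in these IP libraries, against 102 and 232 in the inputs. These counts include the WT and F182del libraries on which the pair was chosen. In limma fits for each variant outside the choice, the difference of the log2 ratio between IP and input was not called, at 5.35 ± 3.22 for N359H (SE, adjusted p = 0.258), 7.81 ± 4.94 for G604R (0.262) and 9.65 ± 4.19 for D619N (0.163), where 0%, 23.1% and 7.69% of hairpins were called. N359H and D619N were each called under 1 alternative processing, which was not a library left out.

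For N359H, G604R and D619N, which took no part in the choice of the pair, the share of the 5p arm was higher in IP than in the input of the same culture in 8 of the 8 cultures with reads in both. A culture here means the IP and input of a variant with the same replicate number, a pairing that the labels do not state. The ninth, G604R replicate 3, had no read of either arm in its input. The log2 ratio of 5p to 3p was higher in IP by 7.60 ± 7.64 (SD, n = 9 cultures, exact permutation test over changes of sign, two-sided, p = 0.0078) with 1 CPM added to each arm, where CPM relates reads to the mature miRNA reads of a library. Since 1 CPM is far less than 1 read here, arms without reads set the size of this mean. G604R replicate 3 enters the test at −0.49, although its input log2 ratio of 0 comes from the added values alone. Without it the difference was 8.61 (n = 8, same exact test, p = 0.0078). With 0.5 read added to each arm, a choice made after the values were seen, it was 3.03 ± 2.24 (exact p = 0.0078). In the 4 cultures with reads of both arms on both sides it was 2.4 ± 0.888, higher in 4 of 4, where the smallest possible p is 0.125. The test takes the 9 cultures as independent, while inputs with the same number deviated together for N359H and for D619N against WT. Averaged by number, the ratio was higher in IP in 3 of 3 (exact p = 0.25, the smallest that 3 values allow).

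A shift between the arms from input to IP was common among hairpins. By the same test with 0.5 read added, 47.8% of the 23 hairpins differed at an exact p below 0.05, 21.7% towards 5p and 26.1% towards 3p, and the median difference was −0.33. Mir-423 had the second highest mean difference towards 5p. Of the other hairpins with neither arm marked as passenger, Mir-28-P2 differed by −0.81 ± 0.903 (SD, n = 9 cultures, exact p = 0.0273), Mir-130-P4a by 0.23 ± 3.38 (exact p = 0.840), Mir-28-P1 by −1.34 ± 2.28 (exact p = 0.117) and Mir-17-P1d by −2.67 ± 2.61 (exact p = 0.0234).

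**Figure D3:**
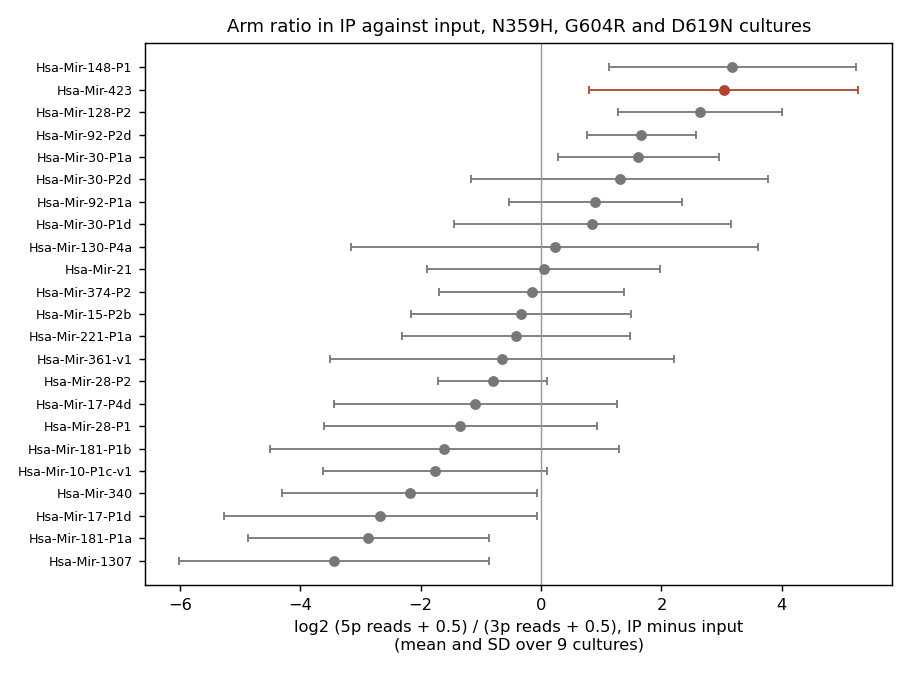
Difference of the log2 ratio of 5p to 3p reads between IP and input of the same culture, for the 23 hairpins with both arms listed, as mean and SD over the 9 cultures of N359H, G604R and D619N. Mir-423 (red) stands at 3.03, towards 5p, and the hairpins spread to both sides of 0.

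The share of the 5p arm among Mir-423 reads was higher in each D619N library than in each WT library, but D619N overlapped G604R, of which replicate 2 had 5 reads, all 5p. It was 55.4%, 60.0% and 50% in the WT replicates and 92.9% (95% Wilson interval 85.3% to 96.7%), 100% (81.6% to 100%) and 82.9% (67.3% to 91.9%) in those of D619N. The intervals of the D619N libraries lie above the WT values. The interval of D619N replicate 3 overlaps that of WT replicate 2 (45.5% to 73.0%), however, and the intervals leave out the spread between replicates. It was 67.3%, 71.9% and 50.9% in F182del, 61.9%, 62.2% and 66.7% in N359H, and 56.0%, 100% (5 reads) and 41.7% in G604R. By summed reads, 124 of 136 were of the 5p arm in D619N (91.2%), 186 of 338 in WT (55.0%), 376 of 630 in F182del (59.7%), 71 of 114 in N359H (62.3%) and 39 of 78 in G604R (50%). In the D619N inputs the 5p arm had 10 of 25 reads (40%).

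In the test across hairpins, this difference was not called. The log2 ratio of 5p to 3p differed between D619N and WT by 5.91 ± 2.94 (SE, limma adjusted p = 0.295, n = 3 and 3 libraries, 4.76% of 21 hairpins called) with 1 CPM added, and by 3.34 ± 1.08 (adjusted p = 0.0943) with 0.5 read added. Without D619N replicate 2, which had no 3p read, it was 2.69. For N359H against WT the difference was 0.51 ± 0.47 (adjusted p = 0.678, 4.76% called) and for G604R 3.46 ± 3.43 (adjusted p = 0.604, 9.09% called). D619N differed from N359H by 5.40 ± 2.95 (adjusted p = 0.301) and from G604R by 2.44 ± 4.53 (adjusted p = 0.755), and G604R from N359H by 2.96 ± 3.46 (adjusted p = 0.859), with 0%, 5.88% and 6.25% of hairpins called. For F182del, which chose the pair, it was 0.52 ± 0.56. In the inputs the differences from WT were −0.24 for F182del, −3.42 for N359H, −2.93 for G604R and −2.33 for D619N, none called (limma adjusted p from 0.844 to 0.966, with 7.14% of hairpins called for F182del and 0% for the others), and with 0.5 read added those of G604R and D619N were 0.29 and 0.18.

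**Figure D4:**
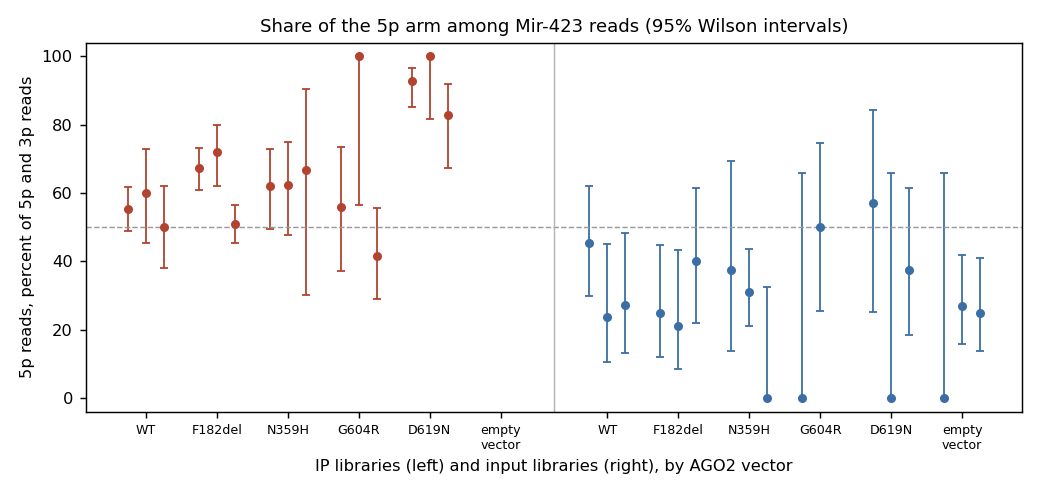
Share of 5p reads among the reads of both Mir-423 arms in each library, in percent with 95% Wilson intervals, for IP (red, left) and input (blue, right) by AGO2 vector. The dashed line marks 50%. The D619N libraries in IP stand between 82.9% and 100%, and most inputs lie below the line. Libraries with no read of either arm have no point.

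Besides Mir-423, 4 hairpins had both arms listed with neither marked as passenger: Mir-28-P2, Mir-130-P4a, Mir-28-P1 and Mir-17-P1d. Of their 8 arms, all tested, 1 was called higher (Mir-28-P1_3p) and 0 lower in the IP of D619N against WT, with a median of −1.04 beside −1.18 over all miRNAs. Among all miRNAs of that fit, 3.25% were called higher and 11.4% lower. In the IP of G604R 1 of the 8 arms was called lower (Mir-28-P1_5p), beside 4.07% of all miRNAs. For N359H 0 were called, beside 0% of all miRNAs. By summed reads in IP, the 5p share was 42.7% in WT and 23.6% in D619N for Mir-28-P2, 50.3% and 12.7% for Mir-130-P4a, 9.23% and 2.78% for Mir-28-P1, and 49.4% and 54.5% for Mir-17-P1d. In D619N the 5p and 3p reads were 65 and 211, 7 and 48, 2 and 70, and 6 and 5, in this order. The D619N libraries of Mir-17-P1d ran from 0% to 100%. In the fits by library, the log2 ratio of 5p to 3p was lower in D619N than in WT for each of the 4, by −1.27, −2.83, −1.78 and −0.88 with 0.5 read added, in the same order, and none was called with 1 CPM added (limma adjusted p from 0.295 to 0.906). For Mir-17-P1d the direction thus differs between summed reads and the fit.

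Over the 15 IP libraries with an AGO2 vector, the levels of the arms followed each other only loosely. Pearson's r of the scaled log2 values was 0.39, which made the 3p arm the 14th of 77 miRNAs in likeness to the 5p arm, and the 5p arm the 19th for the 3p arm. The libraries share depth and vector, so this is a description. They also include the WT and F182del libraries, on which the pair was chosen because both arms were higher with F182del. The correlation is therefore not independent of that choice. Nearest to the 5p arm were Mir-10-P1c-v1_5p (r = 0.84), Mir-130-P2b_3p (0.56) and Mir-130-P4a_3p (0.55). Mir-10-P1c-v1_5p took 17.5% of mature miRNA reads on WT, 21.8% on F182del, 17.2% on N359H, 16.1% on G604R and 20.4% on D619N. Nearest to the 3p arm were Mir-96-P3-v1_5p (r = 0.77), Mir-340_5p (0.66) and Mir-221-P1a_5p* (0.62), which the table marks as a passenger strand. The last took 0.674% on WT, 1.39% on F182del, 0.409% on N359H, 1.69% on G604R and 0.0912% on D619N. On the log2 scale, libraries without reads of a miRNA stand far from the others. The 3p arm had no read in replicate 2 of G604R and of D619N. Mir-96-P3-v1_5p and Mir-340_5p also lacked reads in libraries of both variants, and Mir-221-P1a_5p* in D619N. How far such libraries set these correlations was not tested.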

How the data were processed

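Small RNA reads were analysed by the authors in sRNAbench against MirGeneDB, and the deposited RPM are relative to the total reads of a library. The submitters' processing notes name GRCh38. Values above 0 were whole multiples of the RPM of 1 read in all 36 libraries (tolerance 1e-06). This gave the depth, Wilson intervals (95%) and limits of 3 reads, and no count model was fitted.

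Levels were median-of-ratios scaled and tested with limma 3.58.1 in R 4.3.3 (lmFit, eBayes with trend) on log2(RPM + 1). A miRNA was tested where its scaled RPM reached 1 in 2 of the 3 libraries of a group, with Benjamini-Hochberg adjustment over all tested. Arm ratios were fitted in the same way over the hairpins with both arms listed, with 1 CPM added. The fits were run on simulated data with large known changes. The level changes were set in miRNAs of higher RPM and the arm means were raised. The runs therefore hardly cover arms without reads.

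Whether replicate numbers pair libraries was checked from the correlation between groups of each library's deviations. All 3 correlations were above 0.1 for the inputs of F182del, N359H and D619N against WT, and in no IP comparison. By the study's methods, the input is a sample of the lysate used for the IP. IP and input with the same number were taken as the same lysate, which the labels do not state. In no comparison of IP against input were all 3 correlations above 0.1.

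Named are the pair, for each arm the 3 miRNAs with the highest Pearson correlation over the IP libraries of AGO2 vectors (above 0 in at least 12 of 15), and the hairpins with neither arm marked as passenger. The pair and these lists were chosen with earlier results of these data known.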

Additional observations from a re-analysis of the deposited data

How the results depend on the processing

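Values are log2 differences. Hsa-Mir-423_5p in the IP of D619N against WT, whose p is not independent of the choice of the pair, missed the call rule with a pseudocount of 0.5 RPM (1.23, adjusted p = 0.0526), no filter (1.23, 0.0608), RPM as deposited (1.78, 0.303), CPM (1.19, 0.0728) and a fit of all 5 AGO2 groups (1.47, 0.0531), and passed it with 10 RPM (0.0273). Over all its alternatives the adjusted p ran from 0.0154 to 0.303. The 5p arm of N359H in IP against input was not called with CPM (5.10, 0.125). Calls gained were, for 5p, D619N against G604R with a pseudocount of 10 RPM (1.47), G604R against N359H with RPM as deposited (−1.58), and IP against input of D619N with 10 RPM (3.03) and, with RPM as deposited, of D619N (6.08) and G604R (5.71).

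With RPM as deposited the sign turned for 3p in D619N against G604R (0.36), in the inputs of F182del (−0.023), N359H (0.39) and D619N (0.80), in IP against input of N359H (3.41) and D619N (0.71) and in the G604R interaction (−2.79), and for 5p in the D619N input (0.99). The F182del input of 3p was −0.0067 with 10 RPM. With 0.5 read added, an alternative chosen after the values were seen, the arm ratio in the input was 0.29 for G604R and 0.18 for D619N.

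With the replicate number as a block, D619N against G604R in IP was called for 5p (1.53, adjusted p = 0.0192), where the numbers do not pair the libraries. The block changed no other call among the levels of the arms. The arm ratio in IP against input gained a call under 1 alternative for N359H and under 1 for D619N. The arm ratio over 9 cultures with no replicate block stayed at 7.60. With 10 reads of both arms together 2 cultures were left (2.44, exact p = 0.5), with 10 of each arm 1, and with reads of both arms in IP and input 4 (2.40, exact p = 0.125, chosen after the values were seen), and averaged by number 3 values (7.60, exact p = 0.25, likewise), each too few to pass.

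With 1 library left out, the ranges of results that changed a call or a sign were as follows. For 5p in IP they were −0.13 to 0.36 (N359H against WT), −0.41 to 0.13 (G604R against WT), 1.08 to 1.64 (D619N against WT), 0.85 to 1.62 (D619N against N359H) and −0.58 to 0.059 (G604R against N359H). For 3p in IP they were −3.56 to 0.49 (G604R against WT), −3.85 to 1.03 (D619N against G604R) and −3.10 to 0.91 (G604R against N359H). In the inputs they were −0.36 to 0.22 (5p, F182del), −0.35 to 0.37 (3p, F182del) and −1.26 to 0.63 (5p, D619N). In IP against input they were −0.14 to 0.62 (3p, WT), 1.68 to 4.34 (5p, N359H), −0.31 to 0.52 (3p, N359H), 3.21 to 6.28 (5p, G604R), −1.05 to 2.95 (3p, G604R), 2.16 to 5.37 (5p, D619N) and −2.95 to 0.072 (3p, D619N). Interactions ran from −0.67 to 0.030 (3p, N359H), 1.66 to 4.26 (5p, G604R) and −1.33 to 2.51 (3p, G604R). Arm ratios ran from −0.37 to 5.59 (IP, G604R against WT), −0.78 to 6.27 (IP, D619N against G604R), −0.88 to 5.08 (IP, G604R against N359H), and in the inputs from −0.63 to 0.19 (F182del), −5.33 to 0.18 (N359H), −4.95 to 1.12 (G604R) and −4.26 to 0.96 (D619N). The cause of these changes was not tested. The planned count models (edgeR, DESeq2) were not run, because the deposited values are RPM, and a minimum of 3 reads of both arms in every library removed Mir-423 from comparisons in which a library had fewer.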
